A study of Mus musculus with 18 samples.

Results

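The chromatin of bone marrow-derived macrophages (BMDM) from mdxTLR4-/- mice was examined here at gene starts for an activating and a repressive mark of the same histone residue. Acetylation of lysine 27 of histone H3 (H3K27ac) and trimethylation of that lysine (H3K27me3) were read from the deposited mdxTLR4-/- peak lists, 1 list per mark. All 20807 protein-coding genes of chromosomes 1 to 19 in the GENCODE vM21 annotation were included, and each was described by the 10 kb window that extends 5 kb to either side of its transcription start. A gene was called acetylated when any H3K27ac peak touched its window and methylated when H3K27me3 peaks covered at least 20% of it. By these criteria 5814 genes (27.9%) had acetylation only, 5869 (28.2%) had methylation only, 512 (2.46%) had both marks and 8612 (41.4%) had neither.

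H3K27ac is laid down by the acetyltransferases p300 and CBP and marks active promoters and enhancers. H3K27me3 is written by EZH2 or EZH1 within Polycomb repressive complex 2, spreads over broad domains, and holds developmental genes silent in cells that do not use them. An acetyl group and methyl groups cannot sit on the same lysine at the same time, so peaks of both marks over the same bases stand for different histone tails, nucleosomes, alleles or cells. Macrophages depend on the transcription factor PU.1 and on the receptor for M-CSF, and TLR4 is their receptor for bacterial lipopolysaccharide and for several products of damaged muscle.

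The series holds 18 ChIP-seq samples of BMDM from WT, mdx and mdxTLR4-/- mice, and the mdxTLR4-/- lists rest on 2 H3K27me3 libraries and 1 H3K27ac library. These mice carry the mdx mutation of dystrophin together with the loss of TLR4. The labels give their strain as Bl6/Bl10, the samples as untreated, and ages of 16 and 17 weeks for H3K27me3 and 23 weeks for H3K27ac. WT samples are labelled C57BL6 and mdx samples Dmdmdx-4Cv, and both genotypes have 2 libraries for each mark. Their labelled ages for H3K27me3 are 12 and 13 weeks in WT and 14 and 15 weeks in mdx. For H3K27ac they are 19 and 20 weeks in WT and 21 and 22 weeks in mdx. Every sample is labelled 1 week older than the preceding one, so that the labelled ages may not be the true ages, which could not be checked here. Genotype, strain, age and number of libraries therefore cannot be told apart in any comparison with those lists. Marrow from male mice was grown for 7 days in medium with L929 supernatant, a source of M-CSF, and native chromatin was digested with micrococcal nuclease. Neither allele is restricted to macrophages, and the cells described are macrophages differentiated in culture, not those of dystrophic muscle. Replicates were merged before peaks were called. There is therefore no spread between mice, no test was run, and the 95% Wilson intervals given below describe counting over genes, which share peaks with their neighbours and are not replicates.

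On these chromosomes the H3K27ac list held 12204 peaks with 165505 reads, a median of 8 reads and a minimum of 5 per peak, while the H3K27me3 list held 36294 peaks with 7342998 reads, a median of 75 and a minimum of 16. Library depth is unknown here. The absence of an H3K27ac peak therefore means that none was called and does not show that the mark was absent. The typical H3K27ac peak was 1400 bp long and the typical H3K27me3 peak 3400 bp, and together they covered 20.5 Mb and 223 Mb. Of the H3K27ac peaks, 46.7% lay in at least 1 gene window, against 21.9% of the H3K27me3 peaks.

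The labelled cell type was checked on marker genes. Of 29 measured macrophage surface and effector genes, 24 had acetylation only, 1 had both marks, 0 had methylation only and 4 had neither. The share with acetylation only was 82.8%, against 27.9% of all genes. Laptm5 had 64 H3K27ac reads, Lyz2 (lysozyme) 85, Mpeg1 94, Csf1r (the M-CSF receptor) 103 and Clec4d 116. Marco, Cd36, Cx3cr1 and Ccr2 had no peak of either mark. Few markers of other cell types were acetylated, while their methylated shares are to be read against the 28.2% of all genes with methylation only and the 41.4% with neither mark. Of 8 T cell markers 4 were methylated only and 1 (Cd3d, 7 H3K27ac reads) carried both marks, and of 8 B cell markers 5 were methylated only and 1 (Ms4a1, 12 reads) acetylated only. Of 10 neutrophil markers 2 were methylated only, 7 had neither mark and Prtn3 (7 reads) had both. None of the 8 fibroblast, 8 skeletal muscle and 8 erythroid markers was acetylated, with 5, 5 and 4 of them methylated. Col1a1, Ckm and Slc4a1 were each covered over 100% of the window.

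The 5 promoters below come from all 4 classes and are examples, not typical members. Jun holds 15 CpGs, Irf4 11, and Spi1, Nos2 and Il6 hold 3 each, a property that the classification did not use. Each is the stretch of 250 bases that ends at the base before the annotated start, read 5′ to 3′ on the strand of the gene from GRCm38.p6, and capitals mark CpG dinucleotides. They were chosen after the values were known.
Spi1 (chr2:91082140-91082389, plus strand, acetylation only): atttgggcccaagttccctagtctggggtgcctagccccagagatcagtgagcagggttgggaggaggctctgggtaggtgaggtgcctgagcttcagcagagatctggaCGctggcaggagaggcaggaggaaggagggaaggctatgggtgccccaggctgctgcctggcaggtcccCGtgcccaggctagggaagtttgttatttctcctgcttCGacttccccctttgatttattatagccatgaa
Jun (chr4:95052223-95052472, minus strand, acetylation only): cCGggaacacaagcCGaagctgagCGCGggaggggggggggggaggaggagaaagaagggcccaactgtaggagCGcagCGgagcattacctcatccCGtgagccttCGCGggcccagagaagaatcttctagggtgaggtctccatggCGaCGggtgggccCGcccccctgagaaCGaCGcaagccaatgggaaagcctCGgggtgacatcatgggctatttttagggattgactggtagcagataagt
Nos2 (chr11:78920537-78920786, plus strand, methylation only): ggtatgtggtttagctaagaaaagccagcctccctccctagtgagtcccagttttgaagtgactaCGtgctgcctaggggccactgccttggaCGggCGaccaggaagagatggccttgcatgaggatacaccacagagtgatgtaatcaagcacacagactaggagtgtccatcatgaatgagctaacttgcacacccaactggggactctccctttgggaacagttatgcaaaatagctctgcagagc
Irf4 (chr13:30748976-30749225, plus strand, both): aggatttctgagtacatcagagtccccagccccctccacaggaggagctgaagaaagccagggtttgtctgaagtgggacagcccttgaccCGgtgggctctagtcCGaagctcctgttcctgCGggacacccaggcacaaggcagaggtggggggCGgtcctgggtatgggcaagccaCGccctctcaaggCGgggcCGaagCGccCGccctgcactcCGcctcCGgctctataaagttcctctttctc
Il6 (chr5:30012864-30013113, plus strand, neither): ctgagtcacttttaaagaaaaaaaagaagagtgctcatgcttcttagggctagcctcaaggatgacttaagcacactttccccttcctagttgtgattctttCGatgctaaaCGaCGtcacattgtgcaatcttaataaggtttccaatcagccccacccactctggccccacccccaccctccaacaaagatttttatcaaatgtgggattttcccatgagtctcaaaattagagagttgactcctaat

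Spi1 encodes PU.1, and its start lay under a 6.4 kb H3K27ac peak (chr2:91081601-91088000) with 95 reads, without H3K27me3 in the window. Jun, an AP-1 subunit of the early response, also had 95 reads, in a 5 kb peak. The Jun promoter shown holds 15 CpGs and that of Spi1 holds 3. Pax7, the factor of muscle stem cells, was covered over 100% of its window by a 61 kb H3K27me3 peak at 71.7 reads per kb. Nos2, the inducible nitric oxide synthase, was methylated over 35.9% of the window, but the 37.4 kb peak began 1414 bp downstream of the start and left the promoter shown uncovered. Irf4 carried both marks at its start, with an H3K27ac peak of 5 reads lying inside a 4.8 kb H3K27me3 peak. Il6 had neither mark.

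The marks rarely shared a window. Of 6381 methylated genes (30.7% of all), 8.02% (7.38 to 8.72) had an H3K27ac peak in the window. Of the 14426 genes below the methylation minimum, 40.3% (39.5 to 41.1) did. Overall 6326 genes (30.4%) were acetylated, and the product of the acetylated and methylated shares corresponds to 1940 genes with both marks, so that the 512 found are 0.264 times that number. The acetylated share fell with each step of H3K27me3 coverage. It was 41.2% of the 13339 windows with no H3K27me3, 29.3% below 20% coverage, 20.5% from 20 to 40%, 10.6% from 40 to 60%, 3.70% from 60 to 80% and 2.21% from 80% to under 100%. In windows that were covered entirely it was 0.504%, or 7 of 1389 genes. Next to the minimum itself the values ran on without a step: 39 of 145 genes (26.9%) with 18 to 20% coverage were acetylated and 40 of 177 (22.6%) with 20 to 22%.

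**Figure D1:**
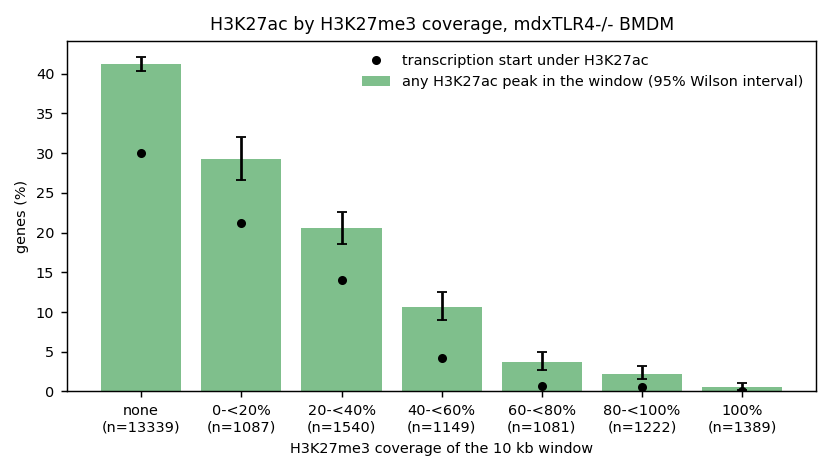
Share of genes with an H3K27ac peak in the window (bars, %, with 95% Wilson intervals) and with the transcription start itself under H3K27ac (points, %), by H3K27me3 coverage of the 10 kb window, with the number of genes under each bar. The bars fall from 41.2% without H3K27me3 to 0.504% at full coverage.

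The shape of each mark around the start differed as well. In genes with acetylation only, H3K27ac was concentrated at the start and covered 74.4% of them at 100 bp downstream, but 5.54% at 3.1 kb upstream. The start was under the peak in 72.7%. The median gene of this class had 12 H3K27ac reads in its peaks (interquartile range 7 to 20) and about 1.8 kb of the window covered. In genes with methylation only, the mark was broad and covered 81.3% of them at 500 bp downstream, 54.1% at the upstream edge of the window and 57.4% at the downstream edge. The start was under the mark in 79.5%, the median coverage of the window was 73.2%, and the main peak had a median length of 9.0 kb at 34.6 reads per kb. H3K27me3 also reached into the gene body, which was covered over at least 50% in 54.3% of these genes, against 0.413% of genes with acetylation only. The window that set the classes takes in up to the first 5 kb of each gene body. This contrast is therefore partly fixed by the classification.

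**Figure D2:**
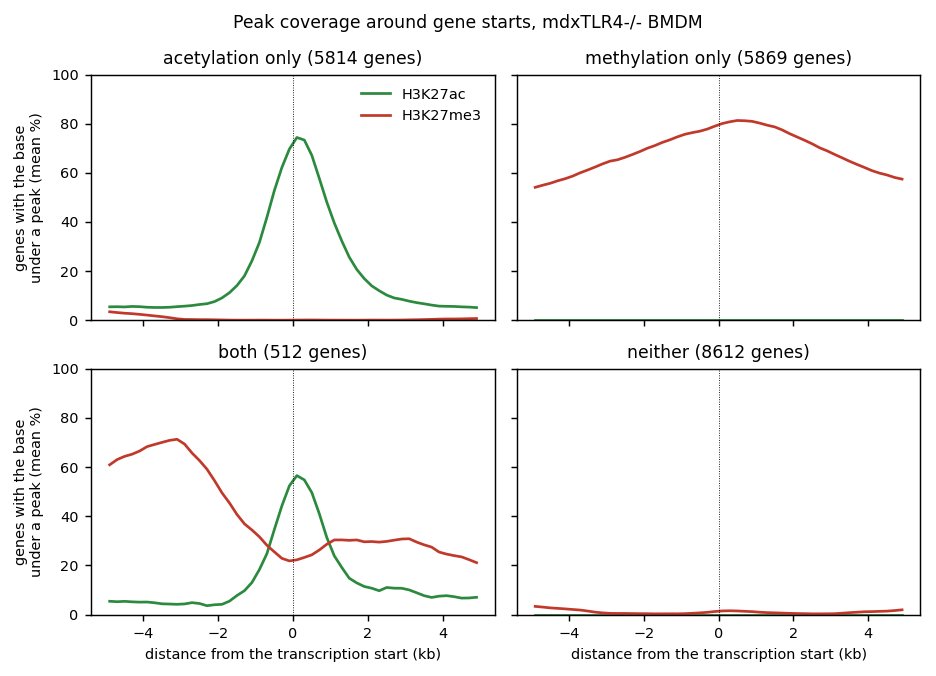
Mean share of genes (%, y axis) whose bases lie under H3K27ac (green) or H3K27me3 (red) peaks, by distance from the transcription start (kb, x axis; upstream is negative), in each class. In genes with both marks, H3K27me3 drops to 21.8% just upstream of the start, where H3K27ac stands at 52.4%, and reaches 71.3% at 3.1 kb upstream. A domain that enters from the upstream edge must reach at least 2 kb into the window to count. The place of this maximum is therefore partly fixed by the classification.

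In genes with both marks the marks mostly lay side by side. The start was under H3K27ac but not H3K27me3 in 266 of the 512 genes (52.0%), under H3K27me3 alone in 96 (18.8%), under neither in 134 (26.2%) and under both in 16 (3.1%). Peaks of the marks shared bases in the window in 79 genes (15.4%). In the other 433 genes the nearest peaks were a median of 1400 bp apart, and in 144 of those they were under 1 kb apart. The class requires both marks in the same 10 kb window, with H3K27me3 over at least 20% of it. These distances are therefore limited in part by the classification. Where the start was acetylated and not methylated, H3K27me3 lay upstream in 213 of 266 genes (80.1%), downstream in 34 and on both sides in 19. Another protein-coding gene started in the window in 28.5% of genes with both marks, against 35.0% of genes with acetylation only, 12.3% with methylation only and 14.2% with neither. The median window held 9 H3K27ac reads against 12 in genes with acetylation only, although reads per kb were about the same (7.5 against 7.14), and 29.9% of the 512 rested on at most 6 reads against 18.4% of the 5814. The median H3K27me3 coverage was 34%, with a main peak of 5.6 kb at 27.4 reads per kb, below the values of genes with methylation only.

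Among the macrophage regulators, Runx1, Fli1 and Bhlhe41 had this side-by-side arrangement. Of 24 macrophage lineage transcription factors 15 had acetylation only (Spi1, Maf with 71 reads, Irf5 with 57 and Zeb2 with 169 among them), 5 had both marks, Tfeb had methylation only, and Klf2, Klf4 and Pparg had neither. Acetylation only held 62.5% of this list and both marks 20.8%, against 27.9% and 2.46% of all genes. With H3K27ac peaks of 10 or more reads, 3 of the 24 had both marks. Runx1, needed for blood cell formation, had a start under an H3K27ac peak of 34 reads and a 9.6 kb H3K27me3 peak that began 1652 bp upstream. Fli1 (31 reads, 28.6% methylated) and Bhlhe41 (15 reads, 22% methylated) had marks without a shared base. These 3 genes had both marks in the WT and the mdx lists too. Rxra differed, with 5 H3K27ac reads inside a region covered over 73.6% of the window, 1400 bp of shared bases, and methylation only in the other genotypes.

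The complement genes C1qa and C1qc, which encode chains of the macrophage product C1q, were among the 10 genes with the most shared bases. H3K27ac peaks of 52 and 70 reads lay at and downstream of the C1qc start, and another of 10 reads lay over the C1qa start. This last peak overlapped a 2.2 kb H3K27me3 peak by 1600 bp, while a 78.6 kb H3K27me3 domain began 1998 bp upstream of C1qa. Both genes had both marks in all 3 genotypes. The largest overlap was at Bahcc1, with 2400 bp shared and 23 H3K27ac reads, followed by Sox4 and Tbata with 2000 bp each and 7 and 11 reads. Tbata had both marks in WT (11 reads) and methylation only in mdx, and Sox4, Cttn, Gm11020 and Cmtm2b had methylation only in both other genotypes. H2-Q4, with 7 reads and 1400 bp shared, had both marks in all 3. In the both class the 79 genes with shared bases had a median of 8 H3K27ac reads, and 48.1% of them were acetylated in WT and 32.9% in mdx. Of the 433 genes without a shared base, 74.6% were acetylated in WT and 65.4% in mdx.

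Among the 16 genes whose start lay under both marks, Dynlt1a had the most H3K27ac reads, 57 against 6.6 kb of H3K27me3 at 72.7 reads per kb, and had both marks in WT and mdx as well. Its symbol belongs to a cluster of near-identical copies, so that the split of reads between them is uncertain. Hjurp and Trpm8, whose annotated starts lie close together on chromosome 1, shared 1 arrangement of 21 H3K27ac reads and 1200 bp under both marks, and Dgat2 had 11 reads and 600 bp. Both marks were present at these 3 genes in all genotypes. Smpd3 had 12 reads, 2510009E07Rik 11 and Grk3 7. Cd81 (7 reads), Rps27rt (9 reads) and Hoxc4 (6 reads) had methylation only in WT and in mdx.

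Genes of the TLR4 pathway were mostly acetylated in mdxTLR4-/- cells, as they were in WT and mdx. Of 24 genes for the TLR4 complex, adaptors and kinases, 16 had acetylation only, 2 methylation only and 6 neither. These are 66.7%, 8.33% and 25% of the list, against 27.9%, 28.2% and 41.4% of all genes. In WT 16 of the 24 had acetylation only and in mdx 15, so this share is not particular to cells without TLR4. Tlr4 itself had an H3K27ac peak of 28 reads over its start (chr4:66827401-66829000) and no H3K27me3, and the WT and mdx lists gave 44 and 29 reads there. Here and elsewhere such counts are unscaled and come from 2 H3K27ac libraries in WT and in mdx and 1 in mdxTLR4-/-. They therefore give no measure of a difference between genotypes. A mark at this start does not report on the protein. Ly96, the MD-2 coreceptor, had 43 reads, Cd14 36, Cd180 56 and Tbk1, a kinase of the interferon branch, 51. Myd88, the adaptor of most Toll-like receptors, had 11 reads, and Tirap, Ticam1, Irak2, Irak3, Ikbkb and Lbp had neither mark. The methylated genes were Sigirr (71.7% of the window) and Tollip (98.9%), both of which restrain Toll-like receptor signalling, and both were methylated in WT and mdx. Traf6 was near the minimum, with 6 H3K27ac reads and 19.7% under H3K27me3, and had methylation only in WT (41.7%) and mdx (39.7%). Among the 8 other Toll-like receptor genes of these chromosomes Tlr2, Tlr3, Tlr6 and Tlr9 had acetylation only and Tlr5 and Tlr12 methylation only.

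All 19 genes of the NF-kappaB and IRF list were acetylated, 17 without and 2 with H3K27me3, where 30.4% of all genes were acetylated. Rel had 31 reads, Nfkb2 34, Irf9 35 and Nfkbia, the inhibitor that NF-kappaB induces, 37. Nfkbie had 13 reads over its start and a 32.6 kb H3K27me3 domain that ended 1903 bp upstream, covering 31.0% of the window, while it covered 17.0% in WT and 15.0% in mdx. Irf4 was methylated only in WT (42%) and mdx (74%), so that its acetylation was seen in 1 of 3 lists and with 5 reads. Interferon-stimulated genes were similar: of 29, 21 had acetylation only, 5 both, 0 methylation only and 3 neither. Acetylation only and both marks made up 72.4% and 17.2% of this list, against 27.9% and 2.46% of all genes. Zbp1 had 24 reads and 23.2% H3K27me3, and Isg15 6 reads and 36%. Oas1a had 5 reads and 41.2%, and these 3 genes carried both marks in all genotypes. Oas3 and Usp18 were the other 2.

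Of 38 inflammatory cytokines and chemokines 13 had acetylation only (34.2%, against 27.9% of all genes), 8 methylation only (21.1% against 28.2%), 2 both (5.26% against 2.46%) and 15 neither (39.5% against 41.4%). These shares were near those of all genes. Ccl12 (47 reads), Ccl3 (25), Cxcl10 (22), Il15 (21) and Il23a (21) were on the acetylated side. Csf2 and Cxcl12 were methylated over 100% of the window, Ccl24 over 88%, Ccl22 over 82.1% and Ccl8 over 66%. Il1b was methylated over 28% by a 2.8 kb peak in mdxTLR4-/-, over 38% in WT and over 42.6% in mdx. Csf1, which encodes M-CSF, had 5 H3K27ac reads in a window covered over 92.7% and methylation only in the other lists. Ifnb1, Il6, Il12b, Il27, Csf3, Cxcl1, Cxcl2 and Ccl5 had neither mark. Of 8 M1 and M2 marker genes, Tgfb1 (26 reads), Mrc1 (9) and Arg1 (8) had acetylation only, Nos2 (35.9%) and Il12a (36%) methylation only, and Tnf, Il6 and Chil3 neither. Tnf had both marks in WT, with 12 reads and 24%, and in mdx, with 9 reads and 30%. These markers were picked by the study on cells of this kind, so the split is not independent evidence of a direction.

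**Figure D3:**
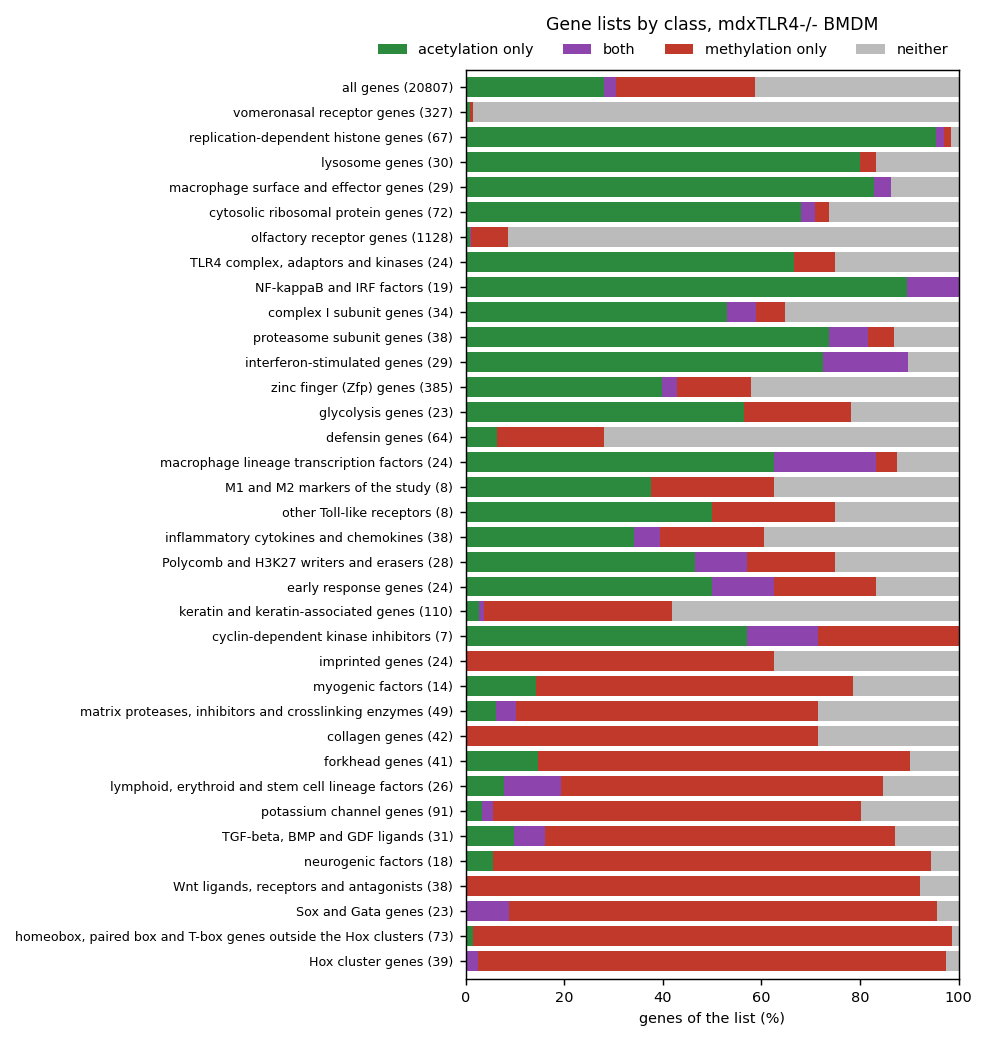
Share of the genes of each list (%, x axis) with acetylation only, both marks, methylation only or neither, with the number of measured genes in brackets and all genes in the top row. Lists are ordered by the share of methylated genes, from vomeronasal receptors to the Hox clusters.

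In 6 lists of cell maintenance genes acetylation only was more frequent than the 27.9% of all genes. Of 67 replication-dependent histone genes 64 had acetylation only, with Hist1h4d at 185 reads, although many share the windows of their neighbours. The lysosome list gave 24 of 30, led by Psap (236 reads) and Ctsb (174), and Tpp1 was its methylated member at 22.4%. Of 38 proteasome subunits 28 had acetylation only, of 72 cytosolic ribosomal proteins 49, of 34 complex I subunits 18 and of 23 glycolysis genes 13. Ribosomal protein windows held few reads, at most 31 in Rps9 and Rpl30, and 19 of the 72 genes had neither mark. With H3K27ac peaks of 10 or more reads, 41 of these 72 and 20 of the 34 complex I genes had neither. The methylated glycolysis genes included forms used in other tissues, Eno2 of neurons (88.7%) and Pklr of liver and red cells (92%). Ldhb (30%) and Hk1 (74.9%) were methylated as well. The symbol Aldoa has 2 gene records on chromosome 7, and 1 of them is the fifth methylated member.

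Early response genes showed every class. Of 24, 12 had acetylation only, 5 methylation only, 3 both and 4 neither. These are 50%, 20.8%, 12.5% and 16.7%, against 27.9%, 28.2%, 2.46% and 41.4% of all genes. Klf6 had 125 reads, Zfp36 71, Junb 49 and Fos 30. Egr2 and Egr3 were methylated over 80% and 68.0% of the window, and Fosl1 over 70.5%. Egr2 had 7 H3K27ac reads in WT and 9 in mdx beside a coverage of 78% in each, and no H3K27ac peak in mdxTLR4-/-. Nr4a3 (13 reads, 47.5%), Fosb (6 reads, 58%) and Fosl2 (20 reads, 30%) had both marks. Myc, Atf3, Dusp1 and Nr4a2 had neither, in all 3 genotypes.

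Genes that direct the development of other tissues were on the methylated side. The counts here are to be read against the 28.2% of all genes with methylation only. Of 39 Hox genes 37 had methylation only, with a median coverage of 100%. All 9 Hoxc genes, Hoxc4 included, lay in 1 domain of 258 kb at 68.8 reads per kb (chr15:102893201-103151200), and Hoxa3 and Hoxa5 to Hoxa13 in 1 of 98.4 kb. In the Hoxb cluster coverage was interrupted at Hoxb4 (27.3%) and Hoxb3, which had neither mark. Hoxb4 had both marks in WT and in mdx, and Hoxb3 acetylation only in mdx. Of 73 homeobox, paired box and T-box genes outside these clusters 71 had methylation only, the exceptions being Tbx6, with 8 H3K27ac reads, and Tbx19, with neither mark. The Lhx1 domain was 226.6 kb long and those of Pitx1 and Dlx3 172.6 and 172.0 kb. Of 38 Wnt ligands, receptors and antagonists 35 had methylation only, as did 20 of 23 Sox and Gata genes, 16 of 18 neurogenic factors and 31 of 41 forkhead genes. Foxo3 (23 reads), Foxj3 (19), Foxp1 (18), Foxn3 (18), Foxk2 (7) and Foxn2 (6) were the acetylated forkhead genes.

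The muscle genes were largely methylated, where 28.2% of all genes had methylation only. Of 14 myogenic factors 9 had methylation only, including Pax3, Pax7 and Eya2 at 100%, Myod1 at 92% and Myog at 34.1%. Myf5, Myf6 and Mef2c had neither mark, and Mef2a (26 reads) and Mef2d (15) had acetylation only. The collagen list held 30 methylated genes of 42 and 12 with neither mark, and none was acetylated, against 30.4% of all genes. Of 49 matrix proteases, inhibitors and crosslinking enzymes 30 had methylation only. Mmp9 was among the most heavily covered genes, under a peak of 80.6 kb at 93.9 reads per kb that also spans Slc12a5. Of 91 potassium channel genes 68 and of 31 TGF-beta, BMP and GDF ligands 22 had methylation only.

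Lineage factors of other blood cells followed the same line, with 17 of 26 methylated only (65.4%, against 28.2% of all genes). Gata2 and Gata3, Pax5, Ebf1, Tcf7, Bcl11b and Tbx21 were covered over 100% of the window. Ikzf1 (37 reads) and Id2 (14) had acetylation only. Tal1 (11 reads, 28%), Id3 (6 reads, 47.0%) and Meis1 (11 reads, 58.2%) had both marks. Of 7 cyclin-dependent kinase inhibitors Cdkn1c (100%) and Cdkn2a (88%) had methylation only and Cdkn2b 6 reads with 91.6% methylated, whereas Cdkn1a, Cdkn1b, Cdkn2c and Cdkn2d had acetylation only, with 12 to 15 reads. Of 28 Polycomb and H3K27 writer and eraser genes 13 had acetylation only, 5 methylation only, 3 both and 7 neither. These are 46.4%, 17.9%, 10.7% and 25%, against 27.9%, 28.2%, 2.46% and 41.4% of all genes. With H3K27ac peaks of 10 or more reads, 8 had acetylation only. Ezh2 (15 reads), Eed (20) and the demethylase Kdm6b (55) were in that class under the main rule. Cbx2, Cbx7 and Cbx8, the chromobox proteins that bind H3K27me3, were methylated over 78.4%, 92.8% and 76% of the window. Bmi1 (10 reads, 30%) and Crebbp, which encodes CBP (5 reads, 40%), had both marks.

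The densest H3K27me3 over full windows was in the major histocompatibility region, where a 136.2 kb peak at 121.3 reads per kb (chr17:35380401-35516600) spans H2-Q6, H2-Q7, H2-Q10 and Pou5f1. Mapk12 (97.1 reads per kb), Tmem59l (92.3) and Onecut3 (91.0) were also among the 10 densest. The H2-Q genes are near-identical copies, and the assignment of reads among them is uncertain. Fcgr3, a macrophage receptor for antibodies, had the densest main peak of any window at 257.7 reads per kb, under a 26.4 kb peak (chr1:171063601-171090000), and its H3K27ac peak of 29 reads lay 4135 bp downstream of the start. Its coverage of 63.4% was equal in the 3 genotypes. Of the genes with acetylation only and the most bases under H3K27ac, Gm10382 had 191 reads, Itm2b 136, Evi2b 108 and Irf2bp2 148. Another 5 (Gm10717, Gm10718, Gm10719, Gm10720 and Gm10721) are predicted genes under 1 peak of 8085 reads near the beginning of chromosome 9. This peak had 209 reads per kb, against a median of 6.5 over all H3K27ac peaks, and the cause of its density was not tested. Altogether 14 H3K27ac peaks above 100 reads per kb held 8.81% of all H3K27ac reads, and 12 genes were acetylated through them alone.

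Several large gene families had mostly neither mark, which was the class of 41.4% of all genes. Of 1128 olfactory receptor genes 1031 had neither mark and 86 methylation only, and of 327 vomeronasal receptor genes 322 had neither. All genes of the Lce (21), Mup (22), Pcdhb (22) and Prl (26) families had neither mark. The share was 64 of 110 for keratin and keratin-associated genes, with 42 methylated only, and 46 of 64 for defensins. Families that were mostly methylated were found as well: 35 of 53 Krt genes had methylation only and 16 neither mark, while 48 of 57 Krtap genes had neither, and of the Klk proteases 25 of 26 had methylation only. Zinc finger genes of the Zfp name were split, with 153 of 385 acetylated only, 162 with neither mark and 58 methylated only. Of 24 imprinted genes 15 had methylation only and 9 neither, and with a minimum of 50% coverage 11 had methylation only and 13 neither.

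The classes differed in sequence at the start. The ratio of observed to expected CpG over the 500 bp to either side, which is near or above 0.6 in CpG islands, had a median of 0.751 (0.745 to 0.756) in genes with acetylation only, 0.679 (0.656 to 0.702) with both marks, 0.531 (0.518 to 0.544) with methylation only and 0.296 (0.286 to 0.308) with neither. At least 0.6 was reached by 74.5%, 63.5%, 42.3% and 31.2% of these classes and by 47.2% of all genes. Methylated genes thus spread over the whole range, with Cdkn2a at 0.98 against Tollip at 0.073. In the promoters of 250 bases the median number of CpGs was 15, 12, 8 and 4. GC content separated the first 3 classes less, with medians of 58.4%, 57.2% and 56.7%, and was 49.0% in genes with neither mark. The ratio was below 0.6 in all 24 macrophage surface and effector genes with acetylation only (median 0.188), in 5 of the 15 macrophage lineage factors of that class and in 1485 of its 5814 genes. In the same class it was below 0.6 in all 13 inflammatory cytokines and chemokines (median 0.230) and 18 of 21 interferon-stimulated genes. So it was in all 10 olfactory receptors, but in only 4 of 49 cytosolic ribosomal protein genes. These counts were made after values of Spi1 (0.18), Lyz2 (0.098), Csf1r (0.19) and Clec4d (0.12) were seen.

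**Figure D4:**
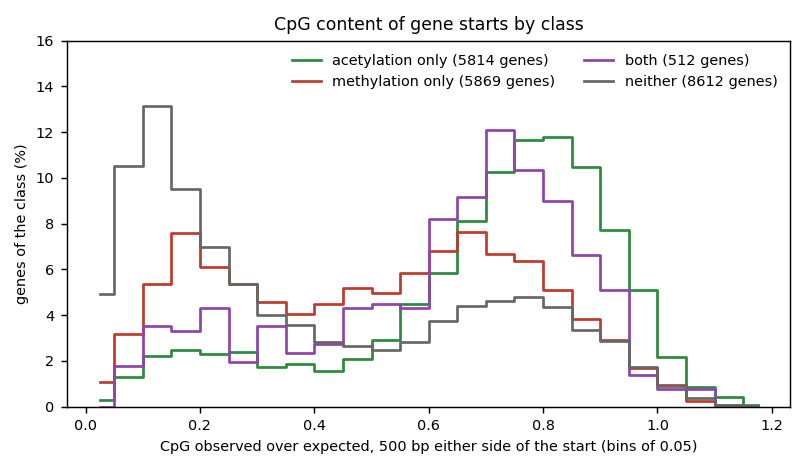
Distribution of the observed over expected CpG ratio in the 500 bp to either side of the start (x axis, bins of 0.05) as share of the genes of each class (%, y axis). Genes with neither mark crowd at low ratios, genes with acetylation only and with both marks lie mostly above 0.6, and genes with methylation only show no single peak.

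Short motifs, 12 in all, were counted on both strands from 250 bases upstream to 50 bases downstream of the start. The ETS motif of the GABP type (CCGGAAGT) was present in 9.17% of genes with acetylation only, 6.84% with both marks, 1.50% with methylation only and 3.98% with neither, against 4.80% of all genes. NRF1 (GCGCATGCG) was present in 3.78%, 1.37%, 1.02% and 1.99% and in 2.20% of all genes, and the cyclic AMP response element (TGACGTCA) in 4.09%, 2.54%, 1.86% and 1.68% and in 2.43% of all. The CpG dinucleotide itself was in 98.9% of genes with acetylation only and 94.9% of all genes. SP/KLF (GGGCGG) was in 59.5% and 43.7%, the E-box (CACGTG) in 10.4% and 7.82%, and CCAAT in 39.9% and 38.6%. All of these motifs except CCAAT hold a CpG, and the part of the CpG content given above in their shares was not tested. The letters GAGGAAGT, a core that PU.1 can bind, were in 3.75% of genes with acetylation only, 2.93% with both marks, 1.87% with methylation only and 3.89% with neither. Of all genes 3.26% held them. TATAAA was most frequent in genes with neither mark, at 18.1%, followed by 10.3% of genes with methylation only, 7.71% with acetylation only and 6.84% with both marks. Of all genes 12.7% held it. The NF-kappaB motif (GGANTTTCC) was in 1.31% of genes with acetylation only and 1.24% of all genes. AP-1 (TGANTCA) was in 4.95% with acetylation only, 8.62% with neither and 6.88% of all. The interferon response motif (GAAANNGAA) was in 8.60%, 9.39% and 8.44%. A match is a run of letters and not a bound site.

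The WT and mdx lists were used as libraries in which the classes had not been set. There, 32.9% and 28.3% of all genes were acetylated and 32.1% and 33.1% methylated. Altogether 29.7% and 25.8% of all genes had acetylation only, 28.9% and 30.6% methylation only, 3.24% and 2.52% both marks and 38.2% and 41.1% neither. The number with both marks was 0.306 and 0.270 times the product of the shares, compared with 0.264 in mdxTLR4-/-. Methylation only was the steadiest class: 90.5% of its 5869 genes were in the same class in WT, 92.9% in mdx and 87.4% in both. For acetylation only the shares were 83.9%, 76.3% and 70.6%, for neither 79.5%, 82.2% and 71.9%, and for both marks 55.3%, 47.5% and 38.5%, or 197 of 512 genes. A change from acetylation only to methylation only was rare, in 46 genes in WT (0.791%) and 59 in mdx (1.01%), and the reverse was seen in 44 (0.750%) and 33 (0.562%).

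**Figure D5:**
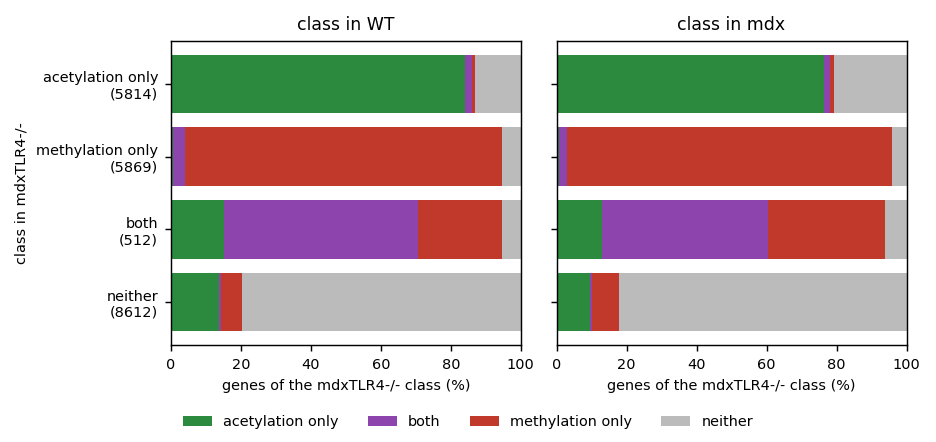
Class of the mdxTLR4-/- genes in the WT (left) and mdx (right) lists, as share of the genes of each mdxTLR4-/- class (%, x axis), with the number of genes in brackets. Genes with methylation only keep their class in 90.5% and 92.9%, and genes with both marks in 55.3% and 47.5%.

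How often the acetylation was found again rose with the number of reads behind it. Of genes with acetylation only and 5 to 6 reads 62.8% (59.9 to 65.7) were acetylated in WT and 47.2% in mdx, and with 20 or more reads 99.2% (98.7 to 99.6) and 98.6%. In genes with both marks the shares were 43.1% (35.6 to 51.1) and 28.1% with 5 to 6 reads and 97.3% and 98.6% with 20 or more. Of the 512 genes, 74 had 20 or more H3K27ac reads, and Runx1, Fli1, Zbp1, C1qc and Dynlt1a were among them. Of genes with neither mark and a CpG ratio of at least 0.6, 29.8% (28.1 to 31.5) were acetylated in WT and 20.8% in mdx, compared with 7.39% and 5.08% of those with a lower ratio. Klf4 and Klf2, for example, had no peak in mdxTLR4-/- but 8 and 17 H3K27ac reads in WT and 11 each in mdx, and Ldha had 35 and 19.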

How the data were processed

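ChIP-seq of BMDM was performed by the authors for H3K27me3 and H3K27ac in WT, mdx and mdxTLR4-/- mice. Per the labels and the methods of the study, reads were called with CASAVA 1.8, trimmed with cutadapt 1.15, mapped to mm10 with Bowtie2 2.3.4, merged over replicates, and searched for peaks with SICER 2.0 (window 200 bp, gap 600 bp, FDR 0.01). The deposited value of each peak is a read count, not scaled for depth or length and without subtraction of input. Duplicate removal is not given in the sources used here. The label mTLR4 was read as mdxTLR4-/-.

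Windows of 10 kb around the 5′ end of each gene record (GENCODE vM21, GRCm38) were intersected with the peaks. Reads of a window are those of whole peaks that touch it. Shares have Wilson intervals and medians order-statistic intervals, both at 95%. Sequences came from GRCm38.p6. The members and the 41 gene lists were chosen with earlier results of these data known. Named genes are list members, the 10 with most H3K27ac bases, the 10 densest of 1382 fully methylated windows, the 10 with most shared bases and the 10 with both marks at the start and most H3K27ac reads, and others were chosen after their values were seen. Some genes that these rules pick are not reported here. Clec7a, Cxcl11 and Mx2 were not found by symbol. Class assignment was tested on simulated data. Python 3.11.15, numpy 2.4.6, scipy 1.17.1 and matplotlib 3.10.9 were used. Read intensity over input was not analysed here.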

Additional observations from a re-analysis of the deposited data

How the results depend on the processing

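The order of the shares held under every alternative run: methylated genes were acetylated less often than the other genes. With any H3K27me3 coverage the shares were 11.1% and 41.2%, and 830 genes had both marks. With at least 50% coverage they were 2.47% and 37.5%, with 104 genes. With a window of 2 kb to either side they were 3.14% and 37.1%, with 182 genes, and with the 5 kb upstream 7.11% and 33.2%. With H3K27ac peaks of 10 or more reads they were 3.39% and 23.9%, with 216 genes having both marks and 3441 acetylation only. With H3K27me3 peaks at least 1.5 times as dense as the 1st percentile they were 7.19% and 39.0%. With any transcript start the unmethylated share was 43.2%. Among the 14524 genes with no other start within 10 kb they were 6.53% and 33.9%, with 316 and 3282 genes. The share of genes with both marks whose start lay under both was 1.93% with any coverage and 11.5% with 50%.

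With at least 50% coverage the same class was found in WT for 84.9% of genes with acetylation only, 93.5% with methylation only, 44.2% with both and 81.0% with neither, and in mdx for 93.5% with methylation only, 28.8% with both and 85.7% with neither. With any coverage it was 88.1% with methylation only and 80.7% with neither in WT and 53.6% with both in mdx. Of 492 class counts of gene lists under 3 alternatives, 378 stayed within 1.5 times their value and 114 did not, 53 of them with H3K27ac peaks of 10 or more reads. In that setting 41 of 72 ribosomal protein genes had neither mark, 20 of 34 complex I genes, 12 of 28 Polycomb and H3K27 writer and eraser genes and 5 of the 8 M1 and M2 markers. With at least 50% H3K27me3 coverage 13 of 24 imprinted genes, 4 of 8 T cell markers and 5 of 8 M1 and M2 markers had neither mark, and with any coverage 12 cytokine genes had acetylation only and 12 neither. Leaving out H3K27ac peaks above 100 reads per kb, an alternative chosen after seeing the data, gave 5802 genes with acetylation only and 512 with both. The cause of these differences was not tested beyond the construction of each alternative. Any H3K27me3 coverage and any transcript start loosen the main rule. The 50% minimum tightens it, and the others take fewer peaks, bases or genes. The shorter windows keep the 20% minimum, so that fewer bases under H3K27me3 are enough there to call a gene methylated. No paired analysis was possible because replicates were merged before the peaks were called, and for the same reason no replicate could be left out. The smallest H3K27ac peaks hold 5 reads, and library depth is unknown here.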

Other observations

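Genes of the X chromosome were outside the classification above. Of 948 protein-coding X-linked genes 125 (13.2%) had acetylation only, 81 (8.54%) methylation only, 0 both marks and 742 (78.3%) neither. The absence of genes with both marks allows a share of up to 0.316%, the limit that a count of 0 allows. The mice were male and carry 1 X chromosome per cell, and the X held 247 H3K27ac peaks and 193 H3K27me3 peaks. The Toll-like receptor genes Tlr7, Tlr8 and Tlr13, the demethylase gene Kdm6a and Rbbp7, which encodes a Polycomb partner, had acetylation only. Sox3 (72.3% of the window) and Cdx4 (22%), regulators of development, had methylation only. Dmd, the dystrophin gene, had neither mark at the 5′ end of its record, as did Gata1, Foxp3, Irak1, Lamp2, Tab3 and Cybb, which encodes a subunit of the phagocyte oxidase.

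The classes were spread unevenly over the autosomes. Methylation only ranged from 23.8% of genes on chromosome 16 to 41.0% on chromosome 15, and both marks from 0.975% on chromosome 18 to 3.95% on chromosome 15. Neighbouring genes share domains, and no test was run on these shares.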
